A study of Mus musculus with 4 samples.

Results

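The retinoic acid pathway and 2 genes reported to respond to it, Hic1 and Tgm2, were followed in Th2 cells grown either without or with SH-2251, a small compound made as an inhibitor of IL-5 production. The 10 genes were Hic1, Tgm2, the retinoic acid receptors Rara, Rarb and Rarg, their partners Rxra and Rxrb, and Dhrs3, Cyp26b1 and Crabp2, which handle retinoids inside the cell. They are 10 of 18539 genes with a named probe on the array. They were chosen by the signals of Hic1 and Tgm2, which had been seen to be lower with SH-2251 in these arrays, so the differences of these 2 genes between the treatments are given as a description and support nothing.

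Each of 4 conditions had 1 single-dye array: control resting, SH-2251 resting, control restimulated and SH-2251 restimulated. All cells were CD4 T cells from the spleens of female C57BL/6J mice, which the study used at an age of 6 to 10 weeks. They were stimulated through the T cell receptor and CD28 for 2 days and then cultured for 3 more days, throughout with IL-4 at 10 ng/ml and IL-2 at 2.5 ng/ml, and the SH-2251 groups also received the compound in both phases. The control groups were cultured without it, and whether they received its solvent is not given. The labels state SH-2251 at 1 µM in the first phase and 1 mM in the second, whereas the study's methods state a lower dose unless mentioned, so the dose is uncertain. The methods also name naive CD4 T cells as the starting cells and a blocking antibody to IFN-γ, which the labels do not. Restimulated cells were exposed to immobilized antibody to the T cell receptor for 4 h, and resting cells were not. Neither the labels nor the methods list a retinoid or a receptor ligand among the additions, and the number of mice behind each array is not given.

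Retinol, the circulating form of vitamin A, is oxidized in cells to retinal and then to retinoic acid. Retinoic acid enters the nucleus and binds a retinoic acid receptor (RAR), which sits on DNA as a pair with a retinoid X receptor (RXR). Without ligand the pair recruits corepressors, and with ligand it recruits coactivators, so that its target genes are transcribed. RXR is also the partner of other nuclear receptors, among them the peroxisome proliferator-activated, thyroid hormone and vitamin D receptors. In T cells retinoic acid is known for inducing receptors that direct the cells to the gut.

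The RAR and RXR pair binds direct repeats of a short half-site, so the promoters of the 10 genes were searched for it. The half-sites were AGGTCA, then GGGTCA, then AGTTCA and last of all GGTTCA, each on either strand, in the 250 bases before each transcription start that RefSeq gives on GRCm38.p6. The direct repeats searched are pairs of these half-sites, so each repeat is also counted as a half-site. Windows were found for 8 of the 10 genes (not for Tgm2 and Crabp2), 17 in all, and 6 of the 17 held at least 1 half-site. Over 32851 windows of all genes, 38.6% held one, so the half-site alone is common. Direct repeats were rare, with 5 bases between the half-sites in 0.0883% of windows, with 2 bases in 0.174% and with 1 base in 0.164%.

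The windows below are shown because they hold the direct repeat, or because they hold a half-site and belong to genes whose signals differed with SH-2251 in both states. They are written 5′ to 3′ on the strand of the gene, and capitals mark half-sites, where TGACCT stands for AGGTCA on the opposite strand, while TGACCC likewise stands for GGGTCA.
Rarb, chr14:16575477-16575726, minus strand: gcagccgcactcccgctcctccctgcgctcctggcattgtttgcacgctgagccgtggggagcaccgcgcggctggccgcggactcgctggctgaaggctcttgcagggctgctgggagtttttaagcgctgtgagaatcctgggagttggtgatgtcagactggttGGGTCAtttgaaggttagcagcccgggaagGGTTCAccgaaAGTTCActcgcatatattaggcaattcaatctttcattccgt
Hic1, distal start, chr11:75170256-75170505, minus strand: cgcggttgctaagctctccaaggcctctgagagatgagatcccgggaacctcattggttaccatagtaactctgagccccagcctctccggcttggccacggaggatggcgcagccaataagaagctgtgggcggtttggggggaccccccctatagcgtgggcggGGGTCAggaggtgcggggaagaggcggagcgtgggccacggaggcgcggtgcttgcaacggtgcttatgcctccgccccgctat
Hic1, proximal start, chr11:75168153-75168402, minus strand: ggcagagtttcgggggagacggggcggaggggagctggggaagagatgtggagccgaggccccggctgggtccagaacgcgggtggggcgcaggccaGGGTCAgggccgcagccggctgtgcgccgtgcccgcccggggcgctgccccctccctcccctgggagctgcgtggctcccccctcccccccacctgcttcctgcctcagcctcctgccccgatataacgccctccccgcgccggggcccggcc
Rxra, second start, chr2:27709042-27709291, plus strand: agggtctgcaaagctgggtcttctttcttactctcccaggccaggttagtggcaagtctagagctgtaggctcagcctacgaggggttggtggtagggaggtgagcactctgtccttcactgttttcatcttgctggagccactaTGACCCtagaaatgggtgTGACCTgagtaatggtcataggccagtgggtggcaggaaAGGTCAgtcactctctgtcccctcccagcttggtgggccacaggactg

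Rarb held the only direct repeat among the windows of these genes, 2 half-sites with 5 bases between them, lying 53 to 37 bases before the start. It is the element that textbooks give as the model of a retinoic acid response element. Each Hic1 window held 1 half-site and no direct repeat. The Rxra window held 3 half-sites, 2 of them AGGTCA, a form found in 14% of all windows, and no repeat at the spacings searched. These matches are descriptions of the letters and show no binding.

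The 10 genes were measured by 16 probes, with 5 genes on 1 probe, 4 on 2 and Tgm2 on 3. Values are log2 signals above or below the array's own 75th percentile, which makes 0 a fairly bright probe. The signals of different probes are not compared with each other, because probes differ in brightness for the same amount of RNA. A probe was counted as measured where the scanner software marked it well above background. By that mark 7 of the 10 genes were above background on all 4 arrays, Crabp2 on 1 array, and Rarb and Cyp26b1 on none. Between 56.0% and 56.7% of all probes were above background on each array. The technical SD given beside a difference is the scanner software's error estimate for the spots, with a median of 0.204 over the genes of each comparison. It leaves out the spread between cultures, which 1 array per condition cannot show, so no test was made. Fewer cells that express a gene and less of its RNA per cell cannot be told apart in these samples.

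**Figure D1:**
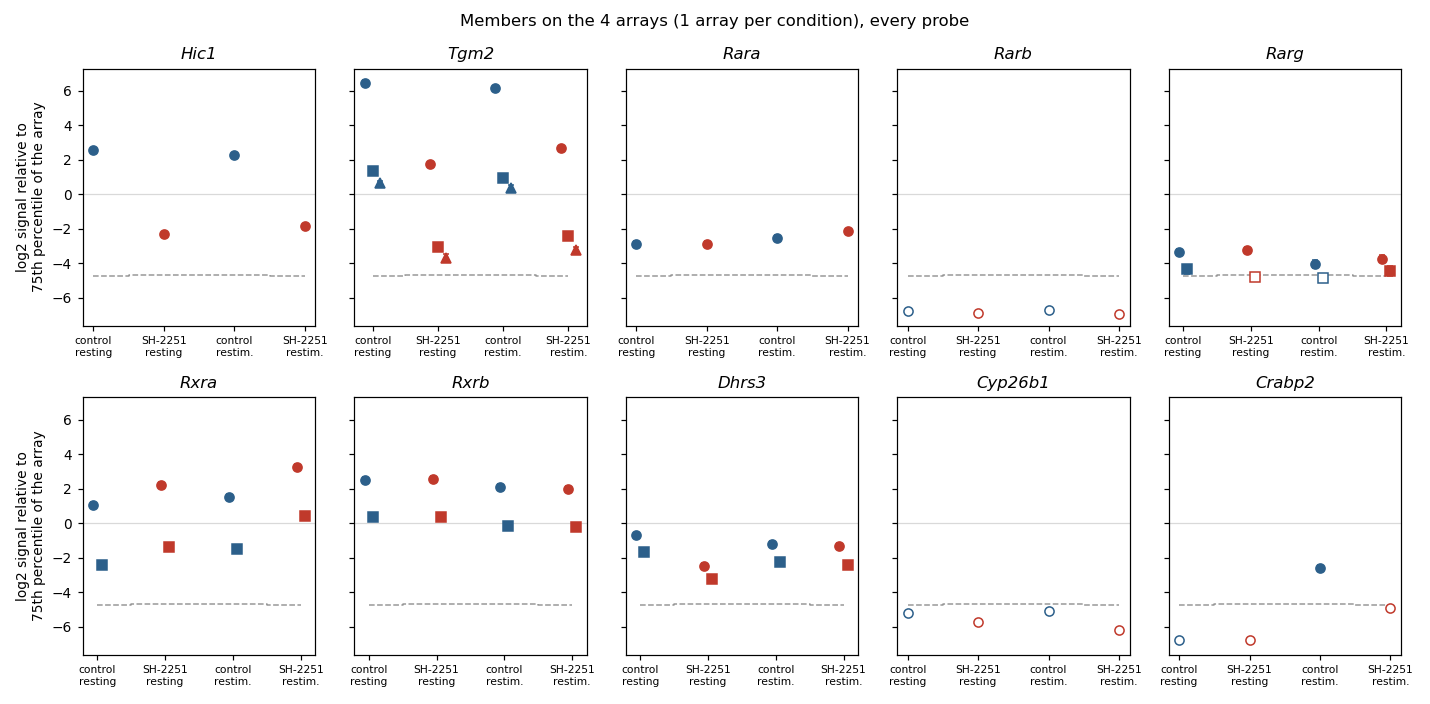
Each panel shows 1 gene, with the log2 signal minus the array's 75th percentile on the vertical axis and the 4 conditions on the horizontal axis (1 array each, control in blue, SH-2251 in red; circle, square and triangle are different probes of the gene, shown from the brightest). Filled points were well above background and open points were not, error bars are the technical SD of the spot and are mostly smaller than the points, and the dashed line is the lowest signal well above background. Hic1 and all 3 Tgm2 probes sit lower in the SH-2251 arrays of both states, Rxra sits higher, and the Rarb and Cyp26b1 points are open on every array.

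Hic1 encodes a zinc finger transcriptional repressor and is reported to be induced by retinoic acid in T cells of the intestine. Its signal was 2.56 on the control resting array, -2.32 on the SH-2251 resting array, 2.26 on the control restimulated array and -1.86 on the SH-2251 restimulated array. Both control arrays were high and both SH-2251 arrays were low, in both states still above background. In processed intensity units the probe read 3305 in the control resting cells and 123 in the SH-2251 resting cells. The difference was -4.88 (technical SD 0.214), which leaves 3.40% of the control signal, and it was the third lowest of 11874 genes measured on both resting arrays. Under the normexp background correction it was -3.65, and -4.20 once spots of uneven local background were left out of that correction. In restimulated cells the intensities were 2387 and 161 and the difference was -4.11 (technical SD 0.209), the second lowest of 11812 genes.

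Tgm2 encodes transglutaminase 2, a calcium-dependent enzyme that crosslinks proteins and a classic gene induced by retinoic acid. Its brightest probe read 6.46 in control resting, 1.75 in SH-2251 resting, 6.14 in control restimulated and 2.67 in SH-2251 restimulated cells. The resting difference was -4.71 (technical SD 0.204), which leaves 3.81% of the control signal, and the restimulated difference was -3.47 (technical SD 0.204), which leaves 9.02%. As with Hic1, the control arrays were high and the SH-2251 arrays low in both states. The second probe of Tgm2 gave differences of -4.43 at rest and -3.39 after restimulation, and the remaining probe gave -4.33 and -3.61. The 3 probes therefore gave the same direction, with values close to each other within each state. Hic1 has 1 probe, so no second probe bears on its value.

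Among the receptors, Rxra was higher with SH-2251 while the RAR genes and Rxrb were within 2-fold. Rxra encodes the RXR partner that is broadly expressed. Its brighter probe read 1.06 in control resting, 2.23 in SH-2251 resting, 1.52 in control restimulated and 3.27 in SH-2251 restimulated cells. Within each state the SH-2251 array was the higher one, and the resting SH-2251 array also lay above the restimulated control array. The differences were 1.17 in resting cells (2.26-fold, technical SD 0.204) and 1.76 in restimulated cells (3.38-fold, technical SD 0.204). The second probe of Rxra read -2.43, -1.35, -1.49 and 0.39 in the same order, with differences of 1.08 and 1.88. With the normexp background correction the resting difference was 0.91, which is under 2-fold, and it was 1.13 once spots of uneven local background were left out. Rxrb, the other RXR gene measured, read 2.52, 2.59, 2.11 and 2.01 in the same order, with differences of 0.07 and -0.10 against a technical SD of 0.204. Its second probe gave -0.02 and -0.06, so neither probe placed the SH-2251 arrays apart from the controls.

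Rara, which encodes the RAR that T cells are known to express, read -2.87 in control resting, -2.86 in SH-2251 resting, -2.51 in control restimulated and -2.15 in SH-2251 restimulated cells. The difference with SH-2251 was 0.01 (technical SD 0.236) in resting and 0.36 (technical SD 0.221) in restimulated cells. The resting arrays were alike to within the technical error, though normexp gave 0.64, and -0.001 once spots of uneven local background were left out. Rarg was nearer to background, at -3.35, -3.22, -4.03 and -3.73 in the same order, and its differences of 0.14 and 0.30 were smaller than their technical SDs of 0.259 and 0.315. Its second probe was above background only on the control resting and the SH-2251 restimulated arrays. Under normexp the resting Rarg difference was 0.76, and -0.008 without spots of uneven local background. Rarb, itself a known target of retinoic acid through the repeat shown above, lay between -6.93 and -6.69 on the 4 arrays, below background on each. No change of Rarb could therefore be measured at this signal, in either direction.

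Of the genes that handle retinoids, Dhrs3 was lower with SH-2251 in resting cells alone. Dhrs3 reduces retinal back to retinol, which limits the making of retinoic acid, and is known as a gene that retinoic acid induces. Its brighter probe read -0.69 in control resting, -2.49 in SH-2251 resting, -1.19 in control restimulated and -1.31 in SH-2251 restimulated cells. The SH-2251 resting array was the low one, and the other 3 arrays lay closer together. The difference was -1.80 in resting cells (3.48-fold lower, technical SD 0.217) and -0.11 in restimulated cells (technical SD 0.209). The second probe gave -1.58 and -0.17. Under normexp the resting difference was -0.67, under 2-fold, and it was -1.29 once spots of uneven local background were left out of that correction. Whether the resting and restimulated differences themselves differ could not be tested with 1 array per condition.

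Crabp2, which carries retinoic acid to its receptor in the nucleus, was above background on the control restimulated array alone, at -2.59. It read -6.77 in control resting, -6.76 in SH-2251 resting and -4.89 in SH-2251 restimulated cells, all below background. In restimulated cells it was therefore at least 4.43-fold lower with SH-2251, a bound set by the lowest signal well above background on the dim array. This value rests on 1 spot with an intensity of 83.0, and both forms of normexp gave a difference of -0.87, under 2-fold. Cyp26b1, a cytochrome P450 that breaks down retinoic acid, read between -6.17 and -5.10 and was below background on all 4 arrays.

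In the resting comparison 3 of the 7 genes measured (Hic1, Tgm2 and Dhrs3) were at least 2-fold lower with SH-2251, against 2.9% of 12683 genes, and 1 (Rxra) was at least 2-fold higher, against 2.22%. In the restimulated comparison 3 of 8 (Hic1, Tgm2 and Crabp2) were lower, against 2.78% of 12622 genes, and 1 (Rxra) was higher, against 2.65%. Hic1 and Tgm2 were chosen for this contrast, so the counts cannot be read against those shares. The median difference over the genes measured was 0.01 in resting and -0.11 in restimulated cells, beside -0.06 over all genes in either state.

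**Figure D2:**
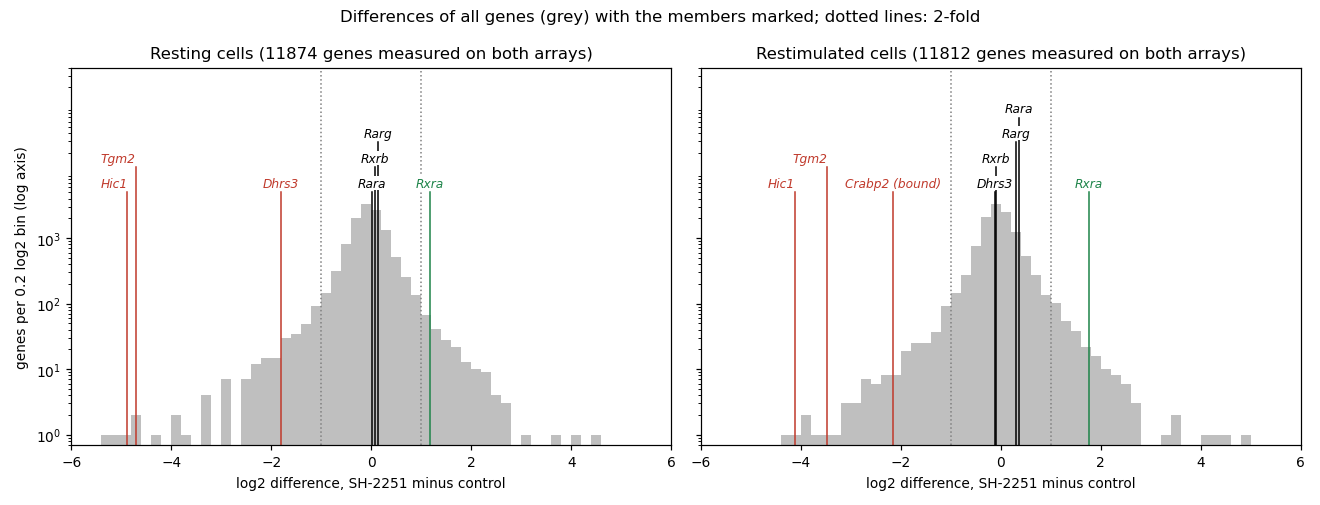
The histograms show, on a log axis, how many genes fell in each step of log2 difference between SH-2251 and control (horizontal axis), for resting cells at the left and restimulated cells at the right, and the vertical lines mark the genes described here. Hic1 (-4.88 and -4.11) and Tgm2 (-4.71 and -3.47) lie at the far lower end, Rxra (1.17 and 1.76) lies above the 2-fold line, the receptors Rara, Rarg and Rxrb lie near 0, and Dhrs3 moves from -1.80 to -0.11. The heights of the marked lines carry no value.

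Restimulation was compared within each treatment, using the same 4 arrays, so these values are not independent of those above. In control cells Hic1 differed by -0.30 (technical SD 0.204) and Tgm2 by -0.32 (technical SD 0.204) between the restimulated and the resting array. In SH-2251 cells Hic1 differed by 0.46 (technical SD 0.218) and Tgm2 by 0.93 (technical SD 0.204). Neither gene reached 2-fold with restimulation in either treatment, so the control arrays stayed high and the SH-2251 arrays low. The exception was Tgm2 in SH-2251 cells under normexp (1.14), which was 0.94 without spots of uneven local background. Dhrs3 differed by -0.50 in control cells and by 1.18 (2.27-fold, technical SD 0.219) in SH-2251 cells. Rxra was higher after restimulation in both, by 0.46 in control cells and by 1.04 (2.06-fold) in SH-2251 cells. Both of these calls in SH-2251 cells depend on the processing, since the Rxra value was 0.96 after quantile normalization and the Dhrs3 value was 0.13 under normexp, or 0.76 without spots of uneven local background, and 0.99 as the mean of its probes. Other settings placed Rxra higher, at 1.74 on its second probe and 1.39 as the mean of its probes in SH-2251 cells, and its second probe gave 0.94 in control cells.

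The receptors that differed by less than 2-fold with SH-2251 also did so with restimulation. Rara differed by 0.36 in control and 0.71 in SH-2251 cells, Rarg by -0.67 and -0.51, and Rxrb by -0.41 and -0.58. Under normexp the Rara value in SH-2251 cells was -0.30, or 0.33 without spots of uneven local background, so its direction rests on the background correction. Crabp2 was at least 4.39-fold higher after restimulation in control cells (0.96 on the log2 scale under normexp) and was not measured in SH-2251 cells. In control cells none of the 8 genes measured was at least 2-fold lower, against 7.34% of 12757 genes, and 1 was higher, against 7.2%. In SH-2251 cells none of 7 was lower, against 6.98% of 12613 genes, and 2 (Rxra and Dhrs3) were higher, against 7.09%.

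The rest of the pathway was described through lists of genes by role. The lists were chosen with earlier results of these data known, so their counts cannot be read against the shares of all genes. Of 12 genes of retinoid uptake and storage, 7 were below background on every array, among them Rbp4, the blood carrier of retinol, and Lrat, the main enzyme that esterifies it. Dgat1, which makes triglycerides and also esterifies retinol, read 3.97 in control resting, 1.38 in SH-2251 resting, 4.04 in control restimulated and 1.82 in SH-2251 restimulated cells. Both SH-2251 arrays were low, with differences of -2.58 and -2.22 (technical SD 0.204 for each), and a second Dgat1 probe gave -2.54 and -2.26. Stra6, the cell surface receptor for retinol uptake, read -1.07, -2.02, -0.28 and -1.47 in the same order, with differences of -0.95 and -1.19. Bco2, which cleaves carotenoids, was above background on the control resting array alone and was at least 2-fold lower in SH-2251 resting cells, with a bound of -2.08. That value rests on 1 probe on 1 array, at -2.57, and has a technical SD of 1.45. In this list 2 of 5 genes measured were at least 2-fold lower in resting cells and 2 of 4 in restimulated cells, against 2.9% and 2.78% of all genes, and none was higher. The medians were -0.95 and -0.71, beside the -0.06 of all genes.

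Of 20 genes that oxidize or reduce retinol and retinal, 12 were measured. Rdh10, the main enzyme that oxidizes retinol to retinal, was higher with SH-2251 in both states, at 0.79 in control resting, 1.91 in SH-2251 resting, 0.05 in control restimulated and 1.39 in SH-2251 restimulated cells. Its differences were 1.12 and 1.34, and its second probe gave 0.91 and 1.11. Aldh1a3, which oxidizes retinal to retinoic acid, read -3.86, -6.99, -1.23 and -3.26 in the same order and was lower by -2.03 (technical SD 0.232) in restimulated cells. In resting cells it gave a bound of -0.79, because the SH-2251 array was below background. At rest 1 of the 12 was thus at least 2-fold higher, against 2.22% of all genes, and none lower. After restimulation Rdh10 was higher and Aldh1a3 lower, against 2.65% and 2.78% of all genes, with medians of -0.09 and -0.15. Aldh1a2, another retinal dehydrogenase, was below background on all arrays.

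Of 5 other genes of retinoic acid binding and breakdown, 3 had a named probe, and Cyp26a1 and Crabp1 were below background on all arrays. The cytochrome P450 Cyp2s1 was the one measured, with differences of -0.29 and -0.19. The 18 coactivators and corepressors of RAR were all measured on every array. None was 2-fold different with SH-2251 in either state, where only 5.12% of all genes were at rest and 5.43% after restimulation, so few calls could be looked for. The differences of these 18 genes ran from -0.69 to 0.62 in resting and from -0.89 to 0.47 in restimulated cells, with medians of 0.05 and 0.01.

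Among 15 other nuclear receptors listed as partners of RXR, 11 were measured at rest and 10 after restimulation. Pparg, a receptor for fatty acids and a regulator of lipid storage, read 3.33 in control resting, -0.50 in SH-2251 resting, 4.37 in control restimulated and 0.38 in SH-2251 restimulated cells. It was lower by -3.83 and -3.99 (technical SD 0.0648 in resting and 0.0646 in restimulated cells), with both control arrays high. Thrb, a thyroid hormone receptor, went the other way, at -3.72, -2.04, -4.24 and -2.76 in the same order, with differences of 1.68 and 1.48 (technical SD 0.271 and 0.334). Its second probe was above background on the SH-2251 resting array alone, and its remaining probes were on none. In both states the list thus had 1 gene at least 2-fold lower, Pparg, and 1 higher, Thrb, where 2.9% of all genes were lower and 2.22% higher at rest, and 2.78% and 2.65% after restimulation. Its medians were 0.02 and 0.03.

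**Figure D3:**
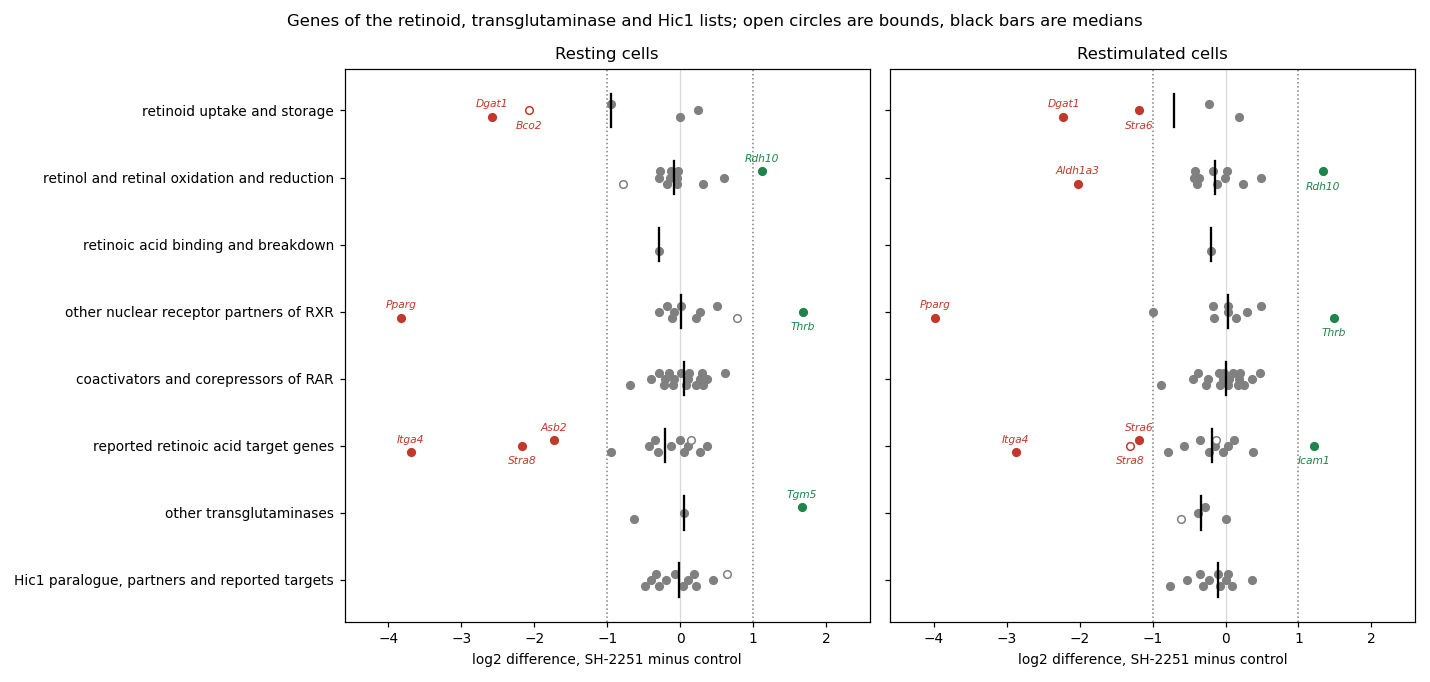
Each point is 1 gene of the list named at the left, placed by its log2 difference between SH-2251 and control (horizontal axis) in resting cells (left) and restimulated cells (right). Open circles are bounds, black bars are medians over the genes measured, dotted lines mark 2-fold, and points are spread vertically only to keep them apart. Pparg (-3.83 and -3.99), Itga4 (-3.70 and -2.88) and Dgat1 (-2.58 and -2.22) stand at the lower side in both states, Thrb and Rdh10 at the higher side, and the coactivators and corepressors between the 2-fold lines.

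Of 23 reported retinoic acid target genes, 21 had a named probe and 14 were measured in each state. Itga4, the α4 chain of the integrins that T cells use to leave the blood in the gut, read -0.41 in control resting, -4.11 in SH-2251 resting, -1.62 in control restimulated and -4.49 in SH-2251 restimulated cells. The differences were -3.70 (technical SD 0.303) and -2.88 (technical SD 0.342), and both SH-2251 arrays lay close to background. A second Itga4 probe gave bounds of -1.12 and -0.48. The remaining probe was above background on the control resting array alone, and gave no fold above 1. Its integrin partner Itgb7 differed by -0.12 and 0.12 and the gut homing receptor Ccr9 by -0.43 and -0.04. Ccr9 read -3.97 and -4.03 on the control arrays, near the lowest signals above background (-4.65 and -4.74 on the SH-2251 arrays). A 2-fold fall of Ccr9 could therefore not have been called. Itgb7 and Ccr9 are named because Itga4 was seen to be low, and were chosen after their values were seen.

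Stra8, a gene of germ cells named for its induction by retinoic acid, was lower by -2.16 in resting cells and gave a bound of -1.31 in restimulated cells. Asb2, a ubiquitin ligase subunit induced by retinoic acid in leukemia cells, read 3.88 in control resting, 2.15 in SH-2251 resting, 4.14 in control restimulated and 3.35 in SH-2251 restimulated cells. Its differences were -1.73 and -0.80, with the SH-2251 array lower in either state. Icam1, an adhesion molecule, differed by 0.37 in resting cells and by 1.21 in restimulated cells. Stra6 also stands in this list. At rest 3 of 14 targets were at least 2-fold lower, against 2.9% of all genes, and none higher. After restimulation 3 of 14 were lower, against 2.78%, and Icam1 was higher, against 2.65%. This list too was chosen with earlier results of these data known, so its counts cannot be read against those shares. The medians of -0.21 and -0.18 lay close to the -0.06 of all genes.

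Tgm2 was compared with the other transglutaminases. Of 8, 7 had a named probe, and 3 were measured in resting and 4 in restimulated cells. Tgm5 was higher with SH-2251 in resting cells, at -2.23 beside -3.89 in the control (difference 1.67, technical SD 0.278), and differed by 0.01 in restimulated cells. It was the 1 gene of 3 past 2-fold at rest, where 2.22% of all genes were higher. None of the others was called 2-fold different in either state, beside 5.12% of all genes at rest and 5.43% after restimulation, and the lowest difference was -0.63. Tgm4 gave only a bound after restimulation, of -0.61. Of 17 genes listed with Hic1, its paralogue Hic2, proteins that work with it and genes reported to be repressed by it, 12 were measured in resting and 11 in restimulated cells. None was called 2-fold different, which is near the same shares of all genes, 5.12% and 5.43%. The range was from -0.48 to 0.65 in resting and from -0.76 to 0.37 in restimulated cells, with medians of -0.02 and -0.10. The 0.65 is a bound, for Efna1, which was above background on the SH-2251 resting array alone. Its resting difference could therefore be larger, and a 2-fold one is not excluded. Hic2 differed by -0.19 and -0.22, and Cdkn1a, a cell cycle inhibitor reported as a Hic1 target, by 0.45 and 0.37. Tgm4, Efna1, Hic2 and Cdkn1a were chosen after their values were seen.

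The genes with the pattern most like that of Hic1 and of Tgm2 were found over the 4 arrays, by the root mean square difference between log2 signals centred on each gene's mean, among 11518 genes above background on all arrays. The nearest gene to Hic1 was Tgm2, at 0.26, and the nearest to Tgm2 was Hic1 at the same distance. Next to both came Plac8, which read 5.16 in control resting, 0.96 in SH-2251 resting, 4.86 in control restimulated and 0.98 in SH-2251 restimulated cells and lay 0.276 from Hic1 and 0.320 from Tgm2. Il1rl1, the receptor for IL-33, followed at 0.542 and 0.423, with differences of -4.61 and -3.78 between SH-2251 and control. Pparg was the fourth of both, at 0.578 and 0.489. The fifth was Tgfb3, a TGF-β ligand, for Hic1 (0.626) and Ffar2, a receptor for short-chain fatty acids, for Tgm2 (0.617). With 4 arrays this likeness mostly repeats that a gene was low on both SH-2251 arrays by a similar amount, and it was used with no test.

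**Figure D4:**
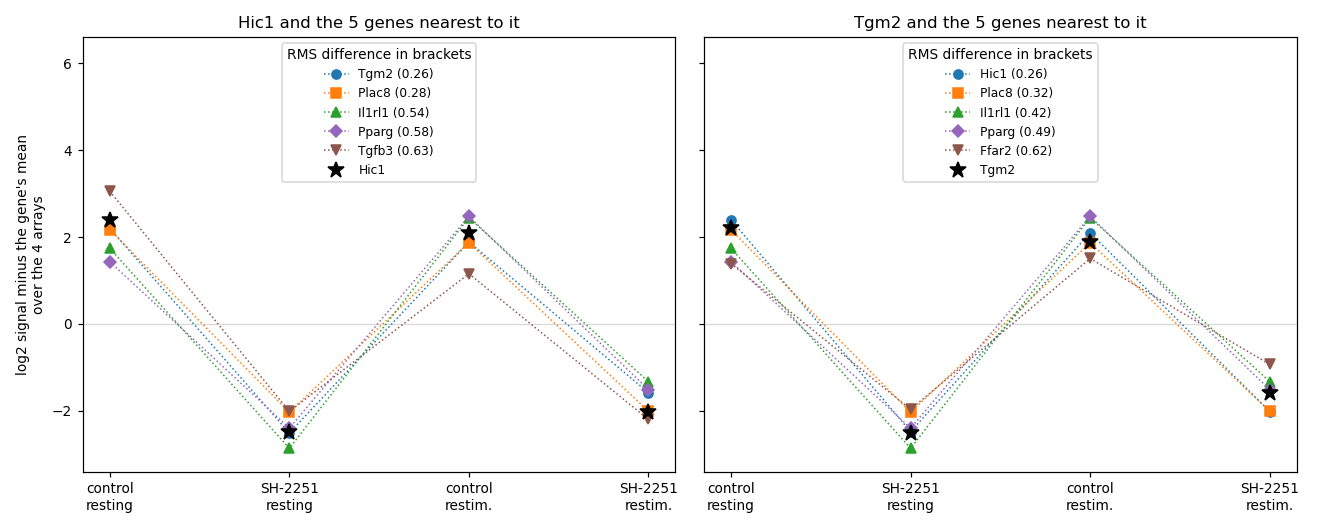
The vertical axis is the log2 signal minus the gene's mean over the 4 arrays, and the horizontal axis gives the 4 conditions with 1 array each. Stars show Hic1 (left) and Tgm2 (right), the other symbols the 5 genes nearest to each with the root mean square (RMS) difference in brackets, and the dotted lines only join points of a gene. Every gene shown is high on the control arrays and low on the SH-2251 arrays, with the control array higher at rest for Tgfb3 and after restimulation for Pparg and Il1rl1.

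The genes beside Hic1 and Tgm2 on the chromosome, in the RefSeq order, were not lower to the same extent. The 2 nearest genes on each side of Hic1 had no named probe. The nearest with one were Smg6 (differences of -0.60 and -0.06), Srr (0.04 and 0.10), Ovca2 (-0.46 and -0.20) and Dph1 (-0.47 and -0.43). Beside Tgm2, the 2 nearest genes on the side of lower coordinates had no named probe. Beyond them Rprd1b differed by -0.18 and -0.21 and Tti1 by -0.45 and -0.39. On the other side D630003M21Rik was above background on 1 array, with a bound of -0.18 in resting cells, and Bpi on none. A fall like that of Tgm2 could not have been measured for either of them.

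The labelled cell type was checked with marker genes. All 6 T cell markers with a named probe and all 7 Th2 markers were above background on all 4 arrays. None of the T cell markers was 2-fold different with SH-2251, beside 5.12% of all genes at rest and 5.43% after restimulation. The summed signal of these markers, in units of the 75th percentile, was 216 in control resting, 203 in SH-2251 resting, 210.0 in control restimulated and 207 in SH-2251 restimulated cells. The Th2 markers summed to 242, 214, 548 and 422 in the same order, lower with SH-2251 in both states. That is also the direction of Hic1 and Tgm2, and a part of Th2 cell number in it was not tested. The brightest markers, Il4ra at rest and Il4 after restimulation, weigh most in these sums. All 7 Th2 markers were below 0 in the resting comparison, 3 of them at least 2-fold lower (Il5 at -3.86, Il13 at -1.32 and Maf at -1.17). After restimulation Il5 (-3.01) and Maf (-1.22) were at least 2-fold lower. There 5 of 7 were below 0, while Il4ra (0.03) and Ptgdr2 (0.16) were above it. Gata3 (-0.17 and -0.03) and Il4 (-0.10 and -0.23) were within 2-fold in both states. Of 7 B cell markers 5 were above background on all arrays and the defining Pax5 and Blk on none. Their summed signal was 4.70, 5.39, 3.76 and 5.81 in the same order, higher with SH-2251 in both states, as for Rxra, and Ms4a1 was past 2-fold (1.21 after restimulation). The NK and CD8 T cell markers also summed higher, at 0.310, 0.508, 0.342 and 0.586, with 2 of 5 above background on all arrays and Cd8a past 2-fold at rest (1.45). The NK cell markers Klrb1c and Ncr1 were below background on every array. The other Cd8a probes gave 1.15 and a bound of 0.15 at rest, and bounds of 0.97 and 0.31 after restimulation. The myeloid and dendritic markers, at 2.80, 2.58, 3.07 and 3.50, lacked Lyz2 and Itgam on every array, with 5 of 9 above background on all and Zbtb46 past 2-fold after restimulation (1.53). The regulatory T cell markers summed to 10.4, 7.71, 23.6 and 21.5 and the Th1 and Th17 markers to 5.04, 2.99, 52.9 and 21.5, both lower with SH-2251, with 2 of 4 and 3 of 5 above background on all arrays. Among the Th1 and Th17 markers Ifng (-1.64) and Cxcr3 (-1.04) were past 2-fold after restimulation. There 4 of 5 were below 0, Il17a at -0.19, while Il17f was higher (0.84). Ifng was the brightest of them after restimulation and weighs most in that sum. Among the regulatory T cell markers the direction was mixed, since Ctla4 was lower (-1.34 and -1.12) and Ikzf2 higher (1.26 and a bound of 1.40), and Foxp3, the defining marker, gave 0.10 at rest and a bound of 0.71 after restimulation. The other Ikzf2 probes were below background on every array. The part of other cells in the differences of Rxra, Hic1 and Tgm2 was not tested.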

How the data were processed

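RNA (500 ng per sample) from the 4 conditions was hybridised to Agilent whole mouse genome arrays with a single dye, all on 1 slide in 1 scan. The authors deposited the scanner files of Feature Extraction 10.7.3.1, whose processed intensity is already corrected for background, and a table of log2 values normalized with the Subio Platform. Here log2 of the processed intensity minus each array's 75th percentile was computed, leaving out control spots and 77 to 106 outlier spots per array. Saturation was not seen on any spot used.

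Probes (41174) were named through RefSeq accessions on GRCm38.p6, which matched 27198 of them. The array design used another build, so no probe coordinates are given. The brightest probe on average represented a gene. A gene entered a comparison if it was well above background on 1 of the 2 arrays, with a bound where the other was dim. For a bound, the dim side was the dimmest signal on the same array that was well above background, or the probe's own signal if brighter, and bounds that crossed 0 were written as 0.

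The text names all 10 genes, genes of the pathway and marker lists at least 2-fold different with SH-2251, others chosen after their values were seen, the 5 nearest patterns and the neighbouring genes. From the lists 1 gene was taken out and is not reported here. The genes, lists and alternatives were chosen with earlier results of these data known. No comparison has replicates, so no test was made. Alternatives were other scalings, background corrections, filters, probe rules, fold thresholds and the authors' values. The normexp correction (limma 3.58.1 in R 4.3.3, offset 50) used median spot signals. Python 3.11.15, numpy 2.4.6 and pandas 2.3.3 were used, and matplotlib 3.10.9 drew the figures. The calculation was checked on simulated data.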

Additional observations from a re-analysis of the deposited data

Results flagged for a closer look

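With restimulation 3 genes differed in opposite directions in the 2 treatments. A gene was flagged if it was above background on all 4 arrays and both differences exceeded their technical SD with opposite signs. How many of all genes pass this rule was not counted, so the 3 cannot be called unusual. The difference between the restimulated and the resting array was -0.30 in control and 0.46 in SH-2251 cells for Hic1, -0.32 and 0.93 for Tgm2, and -0.50 and 1.18 for Dhrs3. The other Tgm2 probes gave -0.40 and 0.64, and -0.28 and 0.44, and the second Dhrs3 probe gave -0.60 and 0.80, so the directions were the same on every probe of these genes. Under normexp the Hic1 value in SH-2251 cells was -0.29, and 0.25 without spots of uneven local background, so its direction there rests on how the background is corrected. That of Dhrs3 was 0.13, and 0.76 without those spots. Whether the treatments differ in this respect was not tested, because each difference is between 2 single arrays, and the 4 arrays are those of the comparison of SH-2251 with control.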

How the results depend on the processing

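No paired analysis was possible because each condition has 1 array and the labels give no replicate numbers. Subtracting the median, using the authors' values and keeping outlier spots left each count of genes past 2-fold among the 10 as it was. Rxra in resting cells passed 2-fold under every alternative run other than normexp and the 3-fold threshold, which gave 0 genes higher instead of 1. For genes higher after restimulation in SH-2251 cells, 2 in the values reported, quantile normalization, normexp without spots of uneven background and the mean of all probes each gave 1, the 1.5-fold threshold 4 and the 3-fold threshold 0, and normexp gave 2 that were Tgm2 and Rxra instead of Rxra and Dhrs3. With no filter Crabp2 made that count 3, and Cyp26b1 made the genes lower with SH-2251 after restimulation 4 instead of 3. Both probes were below background there. In control cells Crabp2 was the 1 gene higher, and both forms of normexp and the demand that both arrays be above background gave 0. The 1.5-fold threshold added 1 gene lower there, Rarg, where none was reported. No called difference changed sign. The Hic1 difference ranged from -4.88 to -3.65 in resting and from -4.11 to -3.56 in restimulated cells over the alternatives, and that of Tgm2 from -4.89 to -4.49 and from -3.49 to -3.36. Over all genes, normexp gave 162 lower and 694 higher in resting cells beside 368 and 282, and 189 and 122 without spots of uneven background. On the SH-2251 resting array its fitted mean background was -151.7, beside 7.36 to 8.23 on the others, and leaving out 12 spots brought it to 7.42. In restimulated cells normexp gave 161 and 149 beside 351 and 334, and 159 and 149 without those spots. With no filter the counts were 798 and 623 in resting and 950 and 678 in restimulated cells. At 1.5-fold they were 945 and 773, and 902 and 871, and at 3-fold 142 and 101, and 144 and 102. For restimulation, normexp gave 443 lower in control cells beside 937 and 1512 in SH-2251 cells beside 881, the latter 443 without spots of uneven background and 1421 with no filter. At 1.5-fold restimulation gave 2366 lower and 1914 higher in control and 2385 and 1871 in SH-2251 cells, and at 3-fold 194 and 379, and 145 and 396. The cause of these shifts was not tested. Dim probes limit what could be measured: Rarb and Cyp26b1 had no value above background.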
